A study of Mus musculus with 12 samples.

Results

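FOXL2 is a forkhead transcription factor of the granulosa cells of the ovary and is normally low in the testis. The comparison described here set the gonads of XY mouse embryos in which a Foxl2 transgene was switched on, called XY FOXL2+, against those of XY control embryos. Its members are the 4 arrays titled for XY FOXL2+ and the 4 titled for XY control, 8 of the 12 arrays of the series. The other 4 arrays are XX controls, which entered the fit only to estimate the spread between arrays. All embryos were taken at 14.5 dpc from a single cross on a mixed 129Sv and C57Bl/6J background. Every embryo carried 1 copy of the Sf1-cre transgene (Sf1-cre+/Tg), which drives Cre in gonadal somatic cells. XY FOXL2+ embryos also carried 1 Rosa26-CAG-LSL-Foxl2 allele, in which a CAG promoter drives Foxl2 once Cre has removed a stop cassette. Both kinds of control were Rosa26+/+, so they carried Cre and no transgene. Foxl2 was therefore driven by a ubiquitous promoter in cells with a history of Sf1-cre, and not by its own control regions. Each array held RNA of 1 pair of gonads from 1 embryo, freed of the mesonephros and hybridised to 1 Affymetrix Mouse Transcriptome Array 1.0.

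The fetal testis is built of cords, in which Sertoli cells enclose the germ cells, and of an interstitium with steroid-producing Leydig cells, vessels and stroma. Cords are bounded by a basement membrane, and peritubular cells lie along them. The cells exchange ligands of the TGF-beta, WNT, FGF, PDGF and Notch families, and Leydig cells draw on cholesterol and lipid synthesis. The usual Sertoli, Leydig and meiosis markers and the cholesterol synthesis enzymes were put on 4 lists of their own. Genes on these 4 lists were left out only where the largest rises and falls were picked. The gene classes and the other marker lists can share members with them. Class counts, class shares and the genes named there can therefore include usual markers.

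The deposited values are taken as log2 signals, and a log2 change below is always XY FOXL2+ minus XY control. Array medians lay between 6.149 and 6.296, and the background probe sets had medians of 3.99 to 4.17. There were no detection calls, so signals near or below the array medians are not shown here to be above background. A fold that starts or ends there is understated if that level is background. Of 65956 transcript clusters (the array's unit for a locus), 1621 rose (2.46%) and 3077 fell (4.67%) at an adjusted p under 0.05 (limma with Benjamini-Hochberg adjustment). Over the 30702 genes with a name, 1036 rose (3.37%) and 1449 fell (4.72%), 237 and 344 of them by at least 2-fold, and the median change was 0.02. The 4 arrays of each group did not overlap, whatever the p, on 7.3% of named genes in the upward and 7.43% in the downward direction. Among the 19232 protein-coding genes the shares were 4.72% and 6.62%. Quantile normalization shifted this split to 2184 clusters that rose and 2656 that fell. Without XY control replicate 3 the counts were 998 and 2126, and without XY control replicate 4 they were 1051 and 2450. A fit on the 8 arrays alone called 809 and 1891, and among named genes 1.61% rose and 2.96% fell in it. XY FOXL2+ replicate 1 stood apart on the second principal component, at -76.9 against -22.1 to 22.6 for the other 11 arrays. Leaving it out gave 1938 and 2960, with 3.71% of named genes higher and 5.17% lower, and class counts that move by over 1.5 times without it are given below. A gene whose call was lost in 4 or more of the 12 fits that each left out 1 array (leave-one-out fits) is named as such where it is described. The mean of 26 Sertoli genes lay between 9.97 and 10.13 on the 4 XY control arrays and between 8.18 and 9.19 on the XY FOXL2+ arrays. That of 15 Leydig and steroidogenic genes lay between 11.13 and 11.28 in the controls and between 7.66 and 8.70 in XY FOXL2+.

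The 4 XY FOXL2+ arrays did not change alike. Of the 344 genes that fell by at least 2-fold, 228 read lower on both replicates 1 and 2 than on either of replicates 3 and 4, and 41 read higher. Of the 237 that rose by at least 2-fold, 90 read higher on both replicates 1 and 2 and 39 read lower. The median SD among the XY FOXL2+ arrays was 0.35 for the falls and 0.63 for the rises, against 0.18 and 0.17 among the controls. An SD under 0.3 among XY FOXL2+ arrays was found for 147 of the falls and 42 of the rises. Foxl2 itself read 5.07, 5.55, 5.44 and 5.33 in the controls and 7.67, 8.62, 7.18 and 6.72 in XY FOXL2+ (2.20 ± 0.33 SE, adjusted p = 0.00122). It was highest on replicate 2 and lowest on replicate 4, and all 4 lay above the controls. Because these are bulk samples, fewer cells of a type and less RNA per cell cannot be told apart in any of the results below.

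Among 39 forkhead genes 2 rose, Foxl2, which the transgene carries, and Foxp1 (0.79 ± 0.08 SE), and 3 fell. Foxr1 read 10.17, 10.67, 10.86 and 11.45 in the controls and 8.50, 8.41, 8.99 and 9.37 in XY FOXL2+ (-1.97 ± 0.26 SE, adjusted p = 0.000434). Foxs1, a forkhead gene of pericytes and other stromal cells, fell by 1.18 (SE 0.09, adjusted p = 7.58e-06) with no overlap between groups. Foxn3 fell by 0.48, a call that 6 of the 12 leave-one-out fits lost. The abundant member Foxo3 (-0.15) did not pass.

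The 20 largest falls outside the classic lists were led by enzymes and secreted proteins. Adh1, an alcohol dehydrogenase that also oxidizes retinol, read 13.49, 13.54, 13.65 and 13.45 in the controls and 6.71, 6.48, 7.31 and 7.27 in XY FOXL2+. This was a change of -6.59 (SE 0.16, 96.3-fold, adjusted p = 3.79e-10), to a level near the array median. Ephx1, the microsomal epoxide hydrolase, read 11.77, 11.73, 12.15 and 11.62 against 7.47, 7.32, 7.74 and 7.79, a change of -4.24 (SE 0.14). Alas1, the rate-limiting enzyme of heme synthesis outside red cells, fell by 2.97 (SE 0.10) with an SD of 0.16 among XY FOXL2+ arrays. Acsbg1, a long-chain acyl-CoA synthetase, fell by 3.21 (SE 0.12), and Sel1l3 fell by 3.61 (SE 0.12). The SD among XY FOXL2+ arrays was 0.22 for Ephx1, 0.16 for Acsbg1 and 0.10 for Sel1l3. It was 0.41 for Adh1, on which replicates 1 and 2 were the lower pair.

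Other large falls were uneven. Defb19, a beta-defensin, read 12.51 to 13 in the controls and 7.76, 6.99, 9.72 and 9.39 in XY FOXL2+ (-4.34 ± 0.46 SE). C7, a terminal complement component, read 10.99 to 11.3 against 6.78, 6.37, 9.27 and 9.99 (-3.04 ± 0.62 SE, adjusted p = 0.00934), and Pdlim3, a protein of actin filaments, 12.87 to 13.83 against 9.32, 8.64, 11.27 and 11.98 (-3.0 ± 0.57 SE). In these, replicates 3 and 4 kept more of the control level than replicates 1 and 2. Casq2 (-3.08), a calcium store protein, and Tacr3 (-3.46), the neurokinin B receptor, showed the same order of arrays. Niban1 went the other way, with 8.23 and 8.99 on replicates 1 and 2 and 7.15 on both of the others, against 11.07 to 11.54 in the controls (-3.45 ± 0.32 SE). The rest of the 20 were Clps (-4.0), the pancreatic colipase, Npy (-3.03), Oxtr (-3.02), Inha (-3.0), Vsnl1 (-2.91), Iqgap2 (-2.88), Jag1 (-2.84), Hhip (-2.78), a hedgehog-binding protein, and Tspan15 (-2.77). Hhip did not pass in the fit on 8 arrays (adjusted p = 0.0865) and lost its call in 4 of the 12 leave-one-out fits.

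**Figure D1:**
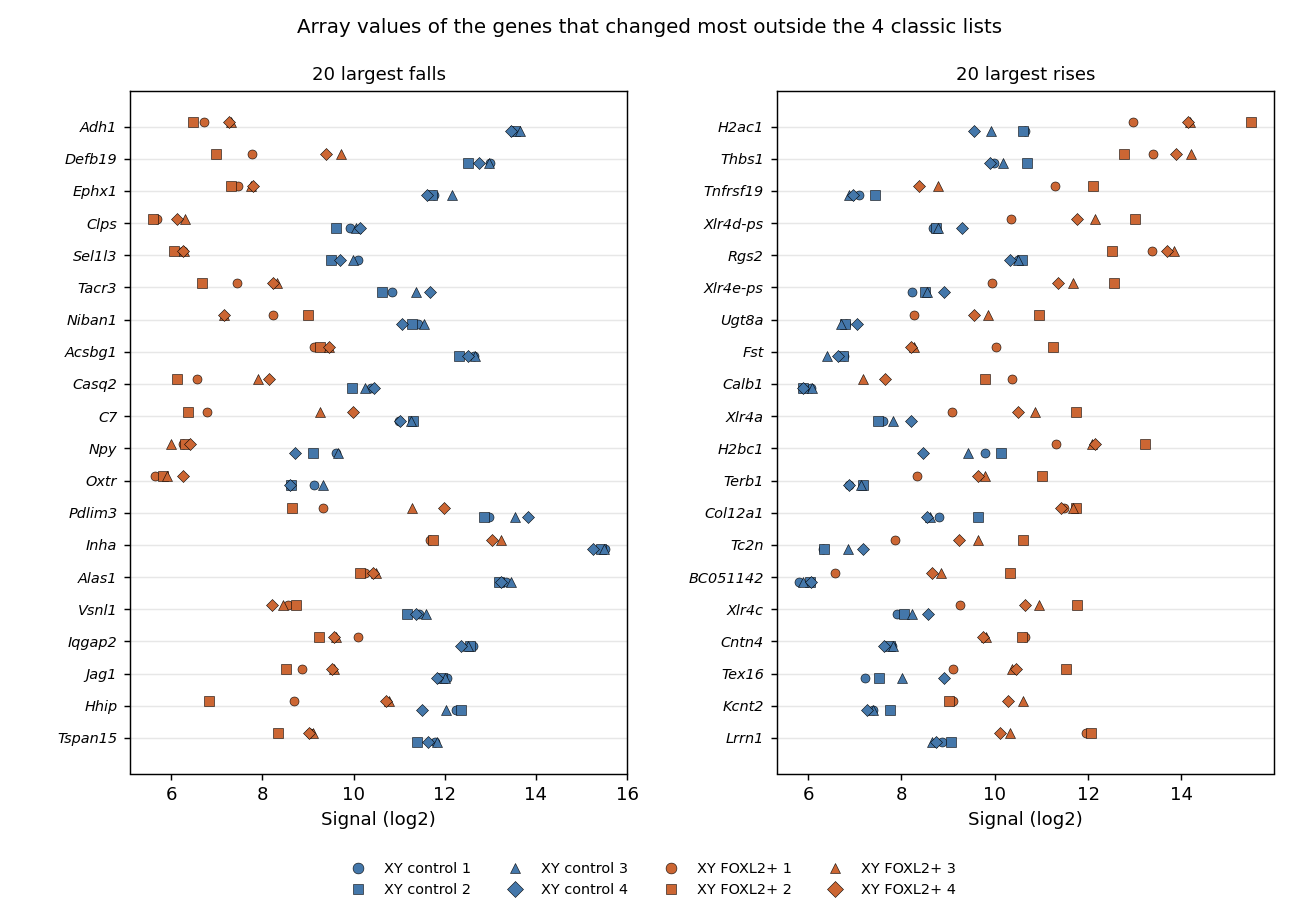
Signal (log2) of the 20 genes with the largest falls and the 20 with the largest rises outside the Sertoli, Leydig, meiosis and cholesterol synthesis lists, 1 point per array, XY control in blue and XY FOXL2+ in orange. The XY FOXL2+ arrays of Ephx1 and Sel1l3 lie within 0.5 log2 units of each other, while Defb19, C7 and Calb1 show them spread over 2 or more log2 units.

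The largest rises are described as a germ cell group, formed by known roles of some members and a shared order of the XY FOXL2+ arrays, and the rest. The cells that gave these transcripts were not measured. H2ac1 and H2bc1 encode histone H2A and H2B variants of germ cells. H2ac1 read 10.64, 10.61, 9.91 and 9.56 in the controls and 12.97, 15.5, 14.18 and 14.14 in XY FOXL2+ (4.02 ± 0.41 SE, adjusted p = 5.27e-05), and H2bc1 rose by 2.73 (SE 0.39). Terb1, which ties telomeres to the nuclear envelope in meiosis, rose by 2.68 (SE 0.38), and Tex16, an X-linked testis-expressed gene, rose by 2.44. Xlr4a (2.76), Xlr4c (2.46) and the pseudogenes Xlr4d-ps (2.94) and Xlr4e-ps (2.84) belong to 1 X-linked family of near-identical copies, whose probes can read each other's transcripts. Ugt8a, the enzyme of galactosylceramide synthesis, read 6.71 to 7.05 in the controls and 8.27, 10.95, 9.85 and 9.55 in XY FOXL2+ (2.81 ± 0.39 SE), and Tc2n and BC051142 rose by 2.66 and 2.65. On all of these, replicate 2 was highest and replicate 1 lowest, but that order helped to form the group and is no separate result. Ugt8a, Tc2n and BC051142 are given no germ cell role here and were placed in the group by that order. The mean of 29 classic meiosis genes showed the same order, at 9.51, 11.54, 10.51 and 10.49 in XY FOXL2+ against 8.31 to 8.71 in the controls. Its part in these rises was not tested.

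The rest of the largest rises included Thbs1, Rgs2, Col12a1 and Kcnt2, which are described with their classes, and the genes below. Tnfrsf19, a TNF receptor family member known as a WNT target, read 6.87 to 7.44 in the controls and 11.29, 12.1, 8.78 and 8.38 in XY FOXL2+ (3.05 ± 0.64 SE, adjusted p = 0.0111, and 0.0535 in the fit on 8 arrays). Calb1, a calcium-binding protein, read 5.89 to 6.09 against 10.38, 9.80, 7.18 and 7.65 (2.77 ± 0.56 SE). Lrrn1, a membrane protein, rose by 2.28 (SE 0.37) with 11.95 and 12.07 on replicates 1 and 2 and 10.32 and 10.12 on the others. Cntn4, an adhesion molecule of axons, rose more evenly, to 10.64, 10.59, 9.81 and 9.74 from 7.63 to 7.81 (2.45 ± 0.19 SE). Replicates 1 and 2 were the higher pair on all 4 genes. Mesonephric duct and tubule markers, of which Calb1 is one, also read higher there: the mean of 8 was 7.20 and 7.18 on replicates 1 and 2, 6.56 and 6.68 on replicates 3 and 4, and 6.42 to 6.70 in the controls. Of those 8, Calb1 rose, Lhx1 (-0.60) and Ret (-0.77, a call lost in 4 of the 12 leave-one-out fits, XY FOXL2+ replicate 1 among them) fell, and Pax2 (4.86 and 4.85 as group means) lay far below the array median in both groups. The part of mesonephric tissue in the rises was not tested.

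**Figure D2:**
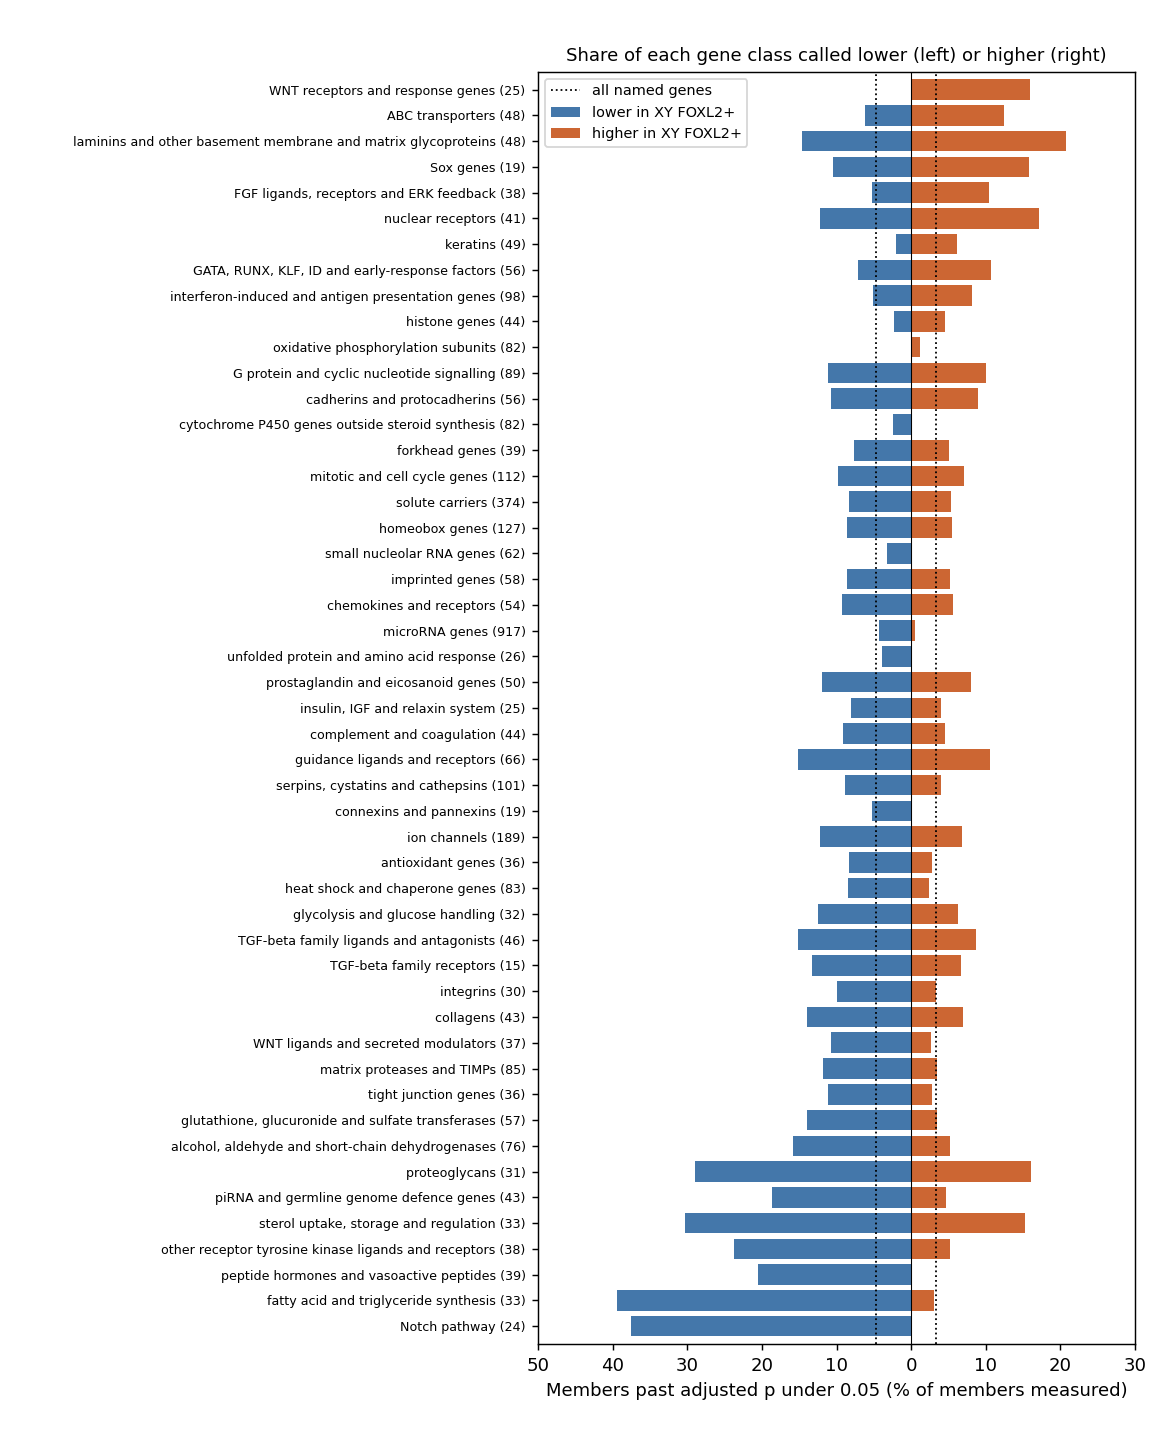
Share of each of 49 gene classes, in percent of members measured (number in brackets), that fell (blue, to the left) or rose (orange, to the right) at an adjusted p under 0.05, with dotted lines at the shares over all named genes, 4.72% and 3.37%. Fatty acid synthesis (39.4%) and the Notch pathway (37.5%) have the largest shares that fell, and no member of the Notch or peptide hormone class rose.

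Class counts are to be read beside the shares over all named genes, 3.37% higher and 4.72% lower. Over protein-coding genes these shares are 4.72% and 6.62%. Some classes lie near them, among them forkhead genes (5.13% and 7.69%), imprinted genes (5.17% and 8.62%) and solute carriers (5.35% and 8.29%). The fit on 8 arrays gave smaller counts in several classes. It called 5 rises among matrix glycoproteins in place of 10, 5 falls each among proteoglycans and the other receptor tyrosine kinase genes in place of 9, 3 falls among piRNA genes in place of 8, and 9 rises among solute carriers in place of 20. Homeobox rises became 2 in place of 7, cell cycle falls 4 in place of 11, and falls among all microRNA genes 21 in place of 40. Without XY FOXL2+ replicate 1 the counts that rose and fell became 2 and 3 among WNT ligands (from 1 and 4), 1 and 5 among chemokines (from 3 and 5), 2 and 1 among Sox genes (from 3 and 2), 2 and 3 among tight junction genes (from 1 and 4), 2 and 2 among cytochrome P450 genes (from 0 and 2), 1 and 3 among oxidative phosphorylation subunits (from 1 and 0), 0 and 3 among unfolded protein response genes (from 0 and 1), and 0 and 1 among small nucleolar RNA genes (from 0 and 2). Quantile normalization turned the balance of some classes, to 27 rises and 21 falls among solute carriers, 8 and 4 among cell cycle genes, 5 and 5 among heat shock genes and 5 and 3 among glycolysis genes.

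Among the signalling classes, the Notch pathway moved in 1 direction: 9 of 24 members fell and none rose, with a median change of -0.15, and 9 fell without XY FOXL2+ replicate 1. Notch receptors are cleaved when a neighbouring cell presents a Jagged or Delta ligand, and the freed domain turns on genes of the Hes and Hey families. The ligand Jag1 read 12.05, 11.94, 12.01 and 11.83 in the controls and 8.87, 8.52, 9.56 and 9.52 in XY FOXL2+ (-2.84 ± 0.20 SE, adjusted p = 2.03e-06). The receptor Notch3, a gene of pericytes and smooth muscle, fell by 1.05 (SE 0.14), the target Heyl fell by 1.35 (SE 0.15), and Dtx4, an E3 ligase of the pathway, fell by 1.99 (SE 0.15). On all 4 the groups did not overlap. Rbpj (0.16), the DNA-binding partner of Notch, and the target Hey1 (-0.30) did not pass. Of 8 myoid and smooth muscle markers 5 fell, among them Acta2 (-1.59), Tagln (-1.55), Myh11 (-1.16) and Cnn1 (-0.78), and the mean of the 8 was 8.31 to 8.54 in the controls and 7.52 to 7.82 in XY FOXL2+. Their part in the Notch change was not tested.

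Peptide hormones and vasoactive peptides also moved 1 way, with 8 of 39 lower, none higher and a median of -0.01. Npy, the precursor of neuropeptide Y, read 9.61, 9.10, 9.65 and 8.72 in the controls and 6.26, 6.29, 5.99 and 6.42 in XY FOXL2+ (-3.03 ± 0.18 SE, adjusted p = 5.17e-07). Pdyn, the dynorphin precursor, read 8.36, 8.28, 9.08 and 8.98 against 6.25, 5.88, 6.23 and 6.39 (-2.48 ± 0.17 SE), and Nts, the neurotensin precursor, fell by 2.35 (SE 0.22). All 3 ended near the array median on every XY FOXL2+ array, so their folds are understated if that level is background. Stc1, stanniocalcin, fell by 1.91 (SE 0.45), with 9.65 and 8.83 on replicates 1 and 2 and 11.29 and 11.22 on the others, and did not pass without replicate 1 (adjusted p = 0.0528), and 4 of the 12 leave-one-out fits lost its call. The oxytocin receptor Oxtr, outside this class, read 8.60 to 9.32 against 5.64 to 6.26 (-3.02 ± 0.19 SE).

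TGF-beta family ligands and antagonists moved both ways, 4 of 46 higher and 7 lower. Inha, the alpha subunit that turns activin into inhibin, read 15.26 to 15.51 in the controls and 11.68, 11.74, 13.23 and 13.03 in XY FOXL2+ (-3.0 ± 0.30 SE). Sostdc1, a secreted BMP and WNT antagonist, fell by 2.54 (SE 0.31), Bmp5 fell by 1.56 (SE 0.11) and the antagonist Lefty2 fell by 1.16. Fst, the activin-binding follistatin, rose from 6.40 to 6.78 in the controls to 10.03, 11.24, 8.27 and 8.21 (2.80 ± 0.51 SE). Gdf10 read 8.85, 9.0, 7.98 and 8.60 against 10.08, 10.28, 9.94 and 10 (1.47 ± 0.23 SE), and Bmp2 rose by 0.73. The Gdf10 rise was nearly the same on all 4 arrays, while that of Fst was largest on replicates 1 and 2. Among 15 receptors Bmpr1b rose (0.87 ± 0.13 SE), and Acvrl1 (-1.0 ± 0.10 SE), the ALK1 receptor of vessels, and the activin receptor Acvr1b (-0.59) fell.

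In the WNT family, ligands and secreted modulators fell more than they rose (4 and 1 of 37), and receptors and response genes rose (4 of 25, none lower). Sfrp4, a decoy for WNT ligands, read 8.52 to 8.79 against 7.21, 6.47, 6.38 and 6.34 (-2.01 ± 0.16 SE), and Wnt5a, a ligand of the stroma, fell by 1.81 (SE 0.23). Its receptor Ror1 rose by 0.99 (SE 0.15) and Nkd1, a feedback inhibitor, rose by 0.99 (SE 0.15). The WNT agonist Rspo1 differed by 1.3 and did not pass. In the FGF class 4 of 38 members rose and 2 fell. Fgfr2 (0.95 ± 0.10 SE) and Fgf11 (0.97) rose, and of the ERK phosphatases Dusp5 rose (0.75) and Dusp4 fell (-1.17). The abundant receptor Fgfr1 (-0.23) did not pass.

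Ligands and receptors of the other receptor tyrosine kinases fell in 9 of 38 cases and rose in 2. Pdgfrb, the PDGF receptor of stromal and peritubular cells, read 13.34, 13.38, 13.25 and 13.15 in the controls and 11.85, 11.75, 11.9 and 11.89 in XY FOXL2+ (-1.44 ± 0.13 SE, adjusted p = 2.69e-05). Vegfd, a growth factor of lymphatic vessels, differed by -1.84 (SE 0.46) and Gdnf, a Sertoli ligand for germ cells, by -1.35 (SE 0.28). Replicates 1 and 2 were again the lower pair, at 9.20 and 8.56 against 11.17 and 10.95 for Vegfd, which 5 of the 12 leave-one-out fits lost. Hgf, the hepatocyte growth factor, fell by 1.38 and lost its call without XY control replicate 1 (adjusted p = 0.052). Gas6, the ligand of the TAM receptors, rose from 12.68 to 12.87 to 14.33, 14.49, 13.55 and 13.51 (1.20 ± 0.19 SE), and the neurotrophin receptor Ntrk3 rose by 0.82. Kitl (1.06), a growth factor for germ cells, did not pass.

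In the insulin and IGF class the change was in binding proteins. Igfbp3 read 11.71 to 12.03 in the controls and 9.37, 8.84, 9.48 and 9.72 in XY FOXL2+ (-2.46 ± 0.16 SE), Igfbp7 fell by 1.95 (SE 0.36), and Igfbp4 rose by 0.39, a call lost in 7 of the 12 leave-one-out fits. Igf2 (0.15) did not pass. Among 54 chemokines and receptors 5 fell and 3 rose. Ccl17 read 9.51, 8.89, 9.59 and 10.66 against 6.61, 6.86, 7.14 and 7.67 (-2.59 ± 0.31 SE). Cxcl12 (-1.84 ± 0.43 SE) and its receptors Cxcr4 (-1.65 ± 0.28 SE) and Ackr3 (-0.79) fell, Cxcl12 being the guidance signal for migrating germ cells. Cxcl12 did not pass in the fit on 8 arrays (adjusted p = 0.0709) or without XY control replicate 1 (0.0566) or 3 (0.0626). Cxcl14 rose from 5.52 to 5.71 to 6.71, 6.30, 7.35 and 7.70 (1.39 ± 0.25 SE). Of 50 prostaglandin and eicosanoid genes 4 rose, led by the receptor Ptger3 (1.31 ± 0.20 SE), and 6 fell, led by Pla2g1b (-1.02, a call lost in 10 of the 12 leave-one-out fits) and Ptgr1 (-0.98).

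**Figure D3:**
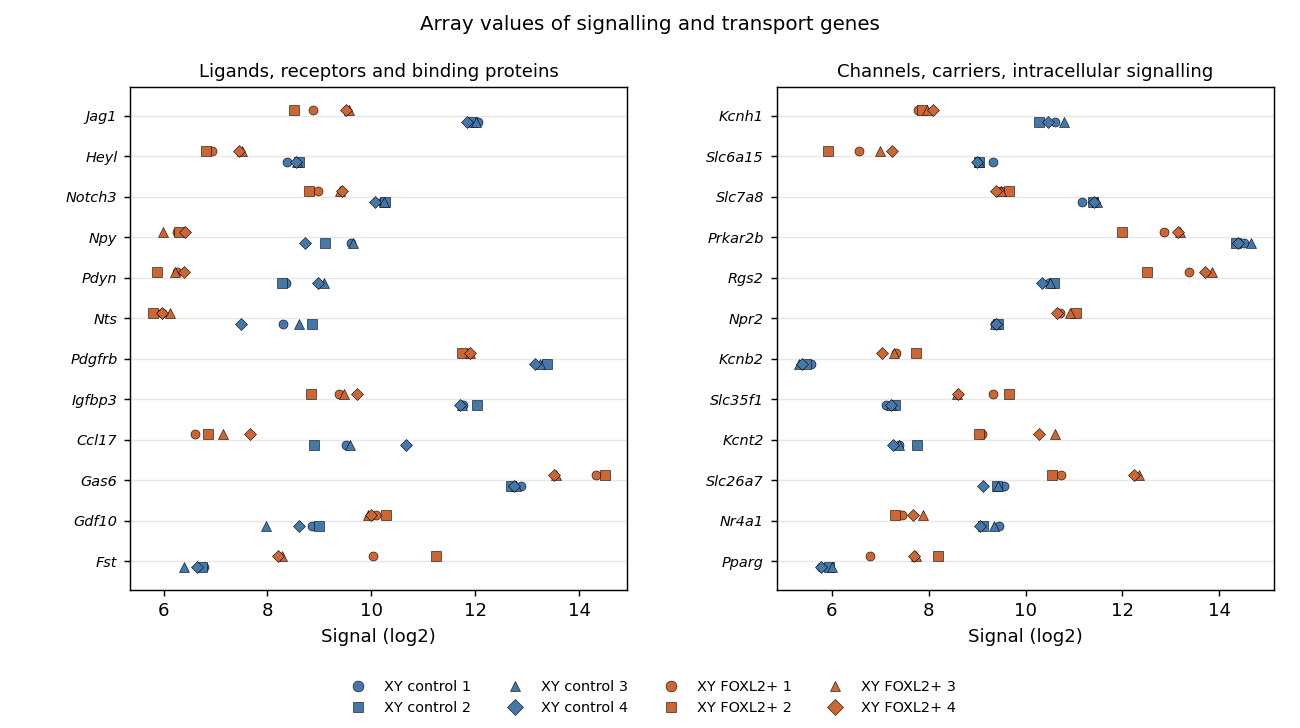
Signal (log2) per array of 12 ligands, receptors and binding proteins (left) and 12 channels, carriers and intracellular signalling genes (right, with the nuclear receptors Nr4a1 and Pparg), XY control in blue and XY FOXL2+ in orange. Npy, Pdyn and Nts end near 6 on every XY FOXL2+ array, Pdgfrb and Npr2 shift with little spread, and Fst and Slc26a7 spread over more than 1 log2 unit.

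Transcription factor families changed in a few members each. Of 41 nuclear receptors 7 rose and 5 fell. Nr5a1 (SF1), the receptor behind the Sf1-cre driver, read 13.27 to 13.47 in the controls and 11.6 to 11.79 in XY FOXL2+ (-1.68 ± 0.08 SE, adjusted p = 6.4e-08). Nr4a1, an early-response receptor of steroid cells, read 9.46, 9.12, 9.34 and 9.07 against 7.45, 7.31, 7.89 and 7.68 (-1.66 ± 0.13 SE). Pparg, the receptor of fat cells, rose from 5.77 to 6.01 to 6.80, 8.20, 7.74 and 7.69 (1.73 ± 0.23 SE). The retinoic acid receptor Rarb rose by 0.99 (SE 0.08), the glucocorticoid receptor Nr3c1 rose by 0.93 (SE 0.10) and Nr6a1, a germ cell receptor, rose by 0.78. Nr2f2, an interstitial gene, fell by 0.61. The calls of Nr2f2 and Nr6a1 were lost in 10 and 4 of the 12 leave-one-out fits.

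Homeobox genes fell in 11 of 127 cases (8.66%) and rose in 7 (5.51%), against 6.62% and 4.72% of protein-coding genes. The falls included neighbours of 2 Hox clusters: Hoxd10 (9.10, 9.49, 9.26 and 9.0 against 8.19, 7.80, 8.05 and 7.83, -1.24 ± 0.12 SE) and Hoxd9 (-0.77), with Tgif1 and Six4 at -0.64 each. Hoxd8 (-0.58), Hoxc6 (-0.56), Hoxc4 (-0.54) and Hoxc5 (-0.52) also fell, and were picked out after their values were seen. Pbx3, a cofactor of Hox proteins, rose by 1.24 (SE 0.14), Prrx1, a gene of mesenchyme, rose by 1.07 (SE 0.09) and Zfhx4 rose by 0.74. In the class of GATA, RUNX, KLF and ID factors 6 of 56 members rose and 4 fell. Among them Id2 (1.25 ± 0.19 SE), Runx1 (1.22) and Id3 (0.80) rose, and Klf12 (-1.08) and the hypoxia factor Epas1 (-0.93) fell. Of 19 Sox genes 3 rose, Sox6 (0.50), Sox4 (0.47) and Sox5 (0.38, a call lost in 8 of the 12 leave-one-out fits). Another 2 Sox genes fell, 1 of them by at least 2-fold, and the fit on 8 arrays called 1 rise and 1 fall. Wt1 (0.47) did not pass.

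Among collagens of basement membranes, Col4a1 read 11.38, 11.32, 11.31 and 11.14 in the controls and 9.94, 9.52, 10.06 and 10.06 in XY FOXL2+ (-1.40 ± 0.12 SE, adjusted p = 1.74e-05), Col4a2 fell by 1.18 (SE 0.13) and Col15a1 fell by 1.11 (SE 0.10). Col14a1, a fibril-associated collagen, fell by 1.04. Col12a1, also fibril-associated, rose from 8.54 to 9.64 to 11.49, 11.75, 11.67 and 11.43 (2.68 ± 0.21 SE). Over 43 collagens 6 fell and 3 rose. The abundant fibrillar genes Col1a2 (-0.39) and Col3a1 (-0.29) did not pass.

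Among 48 laminins and other matrix glycoproteins 10 rose and 7 fell, and 10 and 7 did so without XY FOXL2+ replicate 1. Thbs1, thrombospondin 1, which activates latent TGF-beta and restrains vessels, read 9.99, 10.7, 10.17 and 9.89 in the controls and 13.39, 12.78, 14.2 and 13.88 in XY FOXL2+ (3.37 ± 0.30 SE, adjusted p = 1.74e-05). Postn, periostin, rose to 12.29, 12.15, 12.49 and 12.21 from 9.79 to 10.8 (2.06 ± 0.22 SE), and Tnc, tenascin C, rose by 1.59 (SE 0.12). On all 3, every XY FOXL2+ array lay above every control array. The SD among XY FOXL2+ arrays was 0.15 for Postn and 0.14 for Tnc, and 0.62 for Thbs1. Thbs2 rose by 1.60 (SE 0.36) with 10.42 and 11.84 on replicates 1 and 2 and 9.76 and 9.71 on the others. Smoc2, a matricellular protein, fell by 2.03 (SE 0.20), Emilin3 fell by 1.18, Smoc1 fell by 0.94 and fibronectin Fn1 fell by 0.70. Nid1 (-0.20) and Sparc (-0.20) did not pass.

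Proteoglycans fell in 9 and rose in 5 of 31 cases, and 17 did not pass. The largest rises were in small leucine-rich members. Lum, lumican, read 10.26, 10.7, 10.05 and 10.01 against 12.31, 12.13, 12.55 and 12.5 (2.12 ± 0.20 SE), Prelp rose by 1.43 (SE 0.27) and Kera rose by 1.05. The largest falls were in genes of heparan sulfate proteoglycans. Spock2 fell by 1.59 (SE 0.09), Gpc6 fell by 1.42 (SE 0.14) and Gpc1 fell by 1.19 (SE 0.13), with no overlap between groups. Of 85 matrix proteases and inhibitors 10 fell and 3 rose. Adam23 (-2.50 ± 0.30 SE) and Adamts5 (-2.37 ± 0.28 SE), which cleaves aggrecan and versican, fell most, followed by Htra3 (-1.08, a call lost in 4 of the 12 leave-one-out fits) and the inhibitor Timp1 (-0.93). Of 101 serpins, cystatins and cathepsins 4 rose and 9 fell. The falls included Serpina5 (-2.55 ± 0.22 SE), Cst9 (-2.52, a call lost in 7 of the 12 leave-one-out fits), Serpina3a (-2.04) and the lysosomal protease Ctsl (-1.89 ± 0.34 SE). Cst12 was among the rises (1.36).

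**Figure D4:**
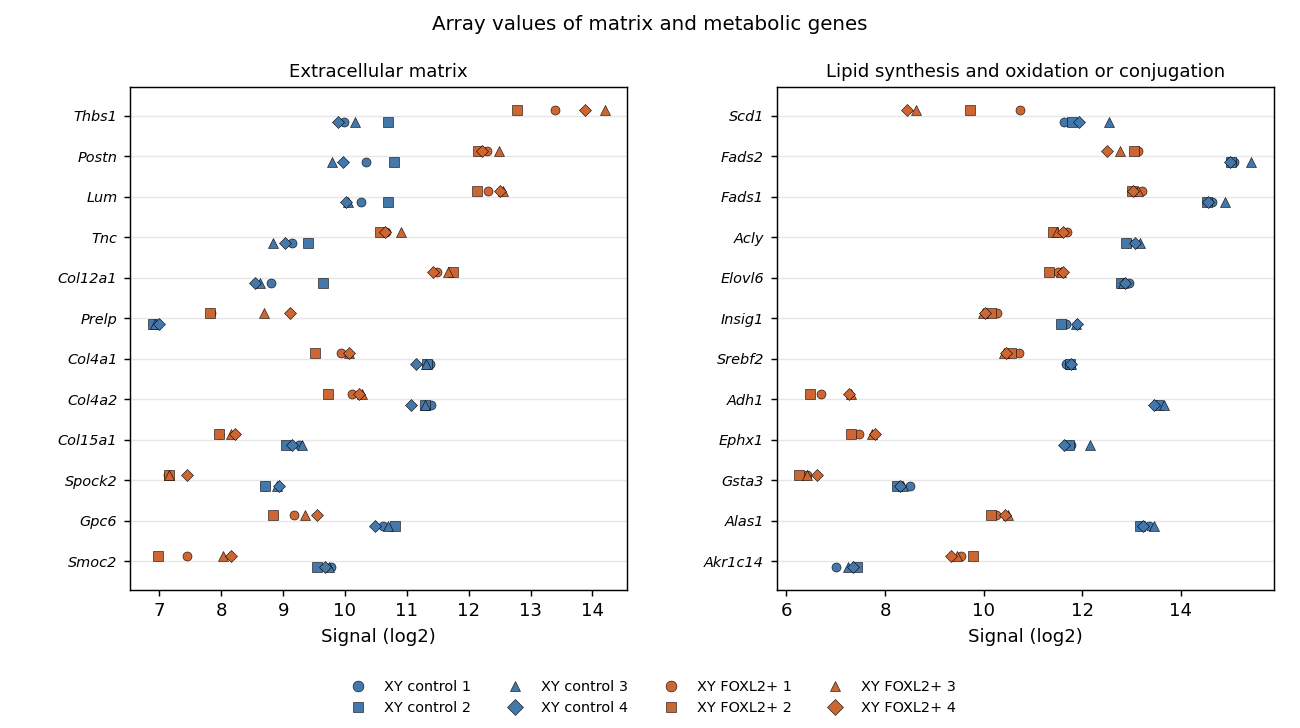
Signal (log2) per array of 12 matrix genes (left) and 12 metabolic genes (right), XY control in blue and XY FOXL2+ in orange. Thbs1, Postn, Lum and Tnc lie higher and the basement membrane collagens and Spock2 lower on every XY FOXL2+ array, and Scd1 is the metabolic gene whose XY FOXL2+ arrays spread most.

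Of 56 cadherins and protocadherins 5 rose and 6 fell, with a median change of 0.05. Cdh1, E-cadherin, fell by 1.72 (SE 0.24), and Fat3, a giant protocadherin, read 10.73 to 10.95 in the controls and 7.88, 7.25, 9.08 and 9.34 in XY FOXL2+ (-2.47 ± 0.35 SE). Fat4 rose by 1.19 (SE 0.14), Dsc2, a desmosomal cadherin, rose by 1.19 and N-cadherin Cdh2 rose by 0.80. Of 36 tight junction genes 1 rose and 4 fell. The falls included Jam2 (-1.78 ± 0.42 SE, a call lost in 4 of the 12 leave-one-out fits) and Cldn11 (-0.94), the claudin of Sertoli cell junctions. Cldn5, a claudin of vessels, rose (0.73). Of 49 keratins 3 rose and 1 fell. Krt8 rose from 7.97 to 8.18 to 10.46, 10.33, 9.25 and 8.92 (1.66 ± 0.28 SE), and Krt19 rose by 0.84. Its partner Krt18 differed by 1.42 and did not pass. Of 30 integrins 1 rose and 3 fell. Itga3, a laminin receptor subunit, rose (0.88 ± 0.11 SE). Itga4 fell (-1.49), a call that 11 of the 12 leave-one-out fits lost. It overlapped the controls through XY FOXL2+ replicate 1, which read 11.09 against 8.83 to 9.27 on the others.

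Guidance genes fell in 10 and rose in 7 of 66 cases. Nrp2, a co-receptor of semaphorins and VEGF, read 8.73, 9.06, 8.30 and 8.33 in the controls and 10.63, 10.25, 10.54 and 10.52 in XY FOXL2+ (1.88 ± 0.16 SE, adjusted p = 1.61e-05). The semaphorin receptor Plxna4 rose by 1.33 (SE 0.23), and netrin Ntn4 rose by 0.74. Sema7a (-1.28 ± 0.18 SE), Sema5b (-1.09), Sema6c (-0.97) and Plxnd1 (-0.96) fell. In the connexin class 1 of 19 fell (5.26%, against 6.62% of protein-coding genes), Gja5 of arteries (-0.90).

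Outside the cholesterol enzymes, 13 of 33 fatty acid and triglyceride synthesis genes fell and 1 rose, with a median of -0.16, and without XY FOXL2+ replicate 1 13 fell and 3 rose. Fads2, the delta-6 desaturase, read 15.07, 15.01, 15.43 and 15 in the controls and 13.13, 13.04, 12.77 and 12.5 in XY FOXL2+ (-2.27 ± 0.14 SE, adjusted p = 7.88e-07). Scd1, the stearoyl-CoA desaturase, read 11.62, 11.8, 12.55 and 11.94 against 10.74, 9.72, 8.63 and 8.45 (-2.59 ± 0.40 SE). On Fads2 and Scd1 replicates 3 and 4 were the lower pair, the reverse of most large falls. Fads1 fell by 1.56 (SE 0.10) and Me1, which supplies NADPH, fell by 1.79 (SE 0.17). Acly (-1.46 ± 0.09 SE) and Elovl6 (-1.36 ± 0.10 SE), which make and extend the acyl chain, were picked out after their values were seen and fell on every array. Acacb passed narrowly (0.53, adjusted p = 0.0497), a call lost in 10 of the 12 leave-one-out fits, and Acaca (-0.04), the carboxylase of the cytosol, did not pass.

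Sterol uptake, storage and regulation genes fell in 10 and rose in 5 of 33 cases. Srebf2, the transcription factor of sterol synthesis, read 11.67, 11.76, 11.77 and 11.78 against 10.71, 10.55, 10.42 and 10.45 (-1.21 ± 0.09 SE), and Insig1, which holds its precursor in the endoplasmic reticulum, fell by 1.65 (SE 0.10). The lipid droplet coat proteins moved apart: Plin1 fell by 1.24 (SE 0.12) and Plin2 rose from 10.37 to 10.53 to 11.88, 12.08, 11.24 and 11.4 (1.23 ± 0.16 SE). Osbpl3 rose by 1.08 (SE 0.08). Of 48 ABC transporters 6 rose and 3 fell. Abca9 rose from 6.71 to 6.95 to 8.66, 8.49, 9.46 and 9.44 (2.20 ± 0.20 SE), and the exporter Abcg1 fell by 0.95 (SE 0.08).

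Enzymes that oxidize or conjugate small molecules fell more often than they rose. Of 76 alcohol, aldehyde and short-chain dehydrogenases 12 fell and 4 rose. After Adh1 the largest falls were Hsd11b2, which inactivates glucocorticoids (-2.04 ± 0.20 SE), Aldh1a7 (-2.02 ± 0.17 SE) and Aldh1a1 (-1.32), a retinal dehydrogenase. Akr1c14, a 3-alpha-hydroxysteroid dehydrogenase, read 7.0, 7.44, 7.24 and 7.36 in the controls and 9.54, 9.78, 9.46 and 9.34 in XY FOXL2+ (2.27 ± 0.14 SE, adjusted p = 8.59e-07), and Akr1c18, which inactivates progesterone, rose by 0.96. Of 57 glutathione, glucuronide and sulfate transferases 8 fell, led by 3 alpha-class glutathione transferases with similar probes, Gsta4 (-2.08 ± 0.15 SE), Gsta2 (-2.05 ± 0.23 SE) and Gsta3 (-1.93 ± 0.09 SE). Of 82 cytochrome P450 genes outside steroid synthesis 2 fell and none rose, a share below that over all named genes. Cyp1b1 (-0.67, adjusted p = 0.0704) did not pass, but did with the replicate block (0.0299), array weights (0.0444), the low-signal filter (0.0474) and without XY control replicate 4 (0.0327).

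Of 82 oxidative phosphorylation subunits 1 passed, Atp5pb (0.56), which 8 of the 12 leave-one-out fits lost. Of 32 glycolysis and glucose genes 2 rose and 4 fell, among them Fbp1 (-0.83), Aldoc (-0.76) and hexokinase Hk2 (-0.64), and Gapdh (-0.07) did not pass. In the heat shock class Hspa1a, the inducible HSP70, read 7.73, 7.79, 8.07 and 8.25 in the controls and 6.14, 5.96, 6.19 and 6.20 in XY FOXL2+ (-1.84 ± 0.11 SE), and Hspa12a fell by 1.22 (SE 0.08). In all 7 of 83 fell and 2 rose, and 12 and 2 without XY FOXL2+ replicate 1. The constitutive Hspa8 (-0.05) did not pass. Of 26 unfolded protein response genes 1 fell, Sel1l (-0.75), and of 36 antioxidant genes Hmox1 (-0.89) and Gpx3 (-0.87, a call lost in 9 of the 12 leave-one-out fits) fell most and Nfe2l2 rose (0.67).

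Solute carriers, the largest class of transporters, rose in 20 and fell in 31 of 374 cases. These shares, 5.35% and 8.29%, lie near the 4.72% and 6.62% of protein-coding genes. Amino acid carriers led the falls: Slc6a15 read 9.0 to 9.33 in the controls and 6.56, 5.93, 6.99 and 7.24 in XY FOXL2+ (-2.42 ± 0.21 SE), and Slc7a8 11.16, 11.39, 11.47 and 11.42 against 9.49, 9.66, 9.49 and 9.39 (-1.85 ± 0.16 SE). The zinc carrier Slc30a2 fell by 1.27 (SE 0.08) and the mitochondrial carrier Slc25a35 fell by 1.13. The rises were led by the anion exchanger Slc26a7, with 9.12 to 9.56 against 10.74, 10.55, 12.34 and 12.23 (2.08 ± 0.37 SE), Slc35f1 (1.82 ± 0.21 SE), the bicarbonate carrier Slc4a4 (1.40 ± 0.16 SE) and the lactate carrier Slc16a1 (1.18 ± 0.22 SE). Slc26a7 was higher on replicates 3 and 4, and Slc35f1, Slc4a4 and Slc16a1 on replicates 1 and 2.

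Ion channels fell in 23 and rose in 13 of 189 cases. The voltage-gated potassium channel Kcnh1 read 10.61, 10.27, 10.79 and 10.47 in the controls and 7.78, 7.86, 7.97 and 8.10 in XY FOXL2+ (-2.61 ± 0.12 SE, adjusted p = 5.72e-08), and Kcnd3 (-1.46 ± 0.14 SE) and the leak channel Kcnk3 (-1.44 ± 0.23 SE) fell too. Other potassium channels rose: the sodium-activated Kcnt2 from 7.27 to 7.76 to 9.10, 9.03, 10.61 and 10.28 (2.31 ± 0.30 SE), and Kcnb2 from 5.33 to 5.57 to 7.33, 7.73, 7.29 and 7.04 (1.91 ± 0.15 SE). The calcium release channel Itpr2 rose by 1.82 (SE 0.28) and the cation channel Trpc5 rose by 1.64 (SE 0.27).

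Genes of G protein and cyclic nucleotide signalling changed at several steps, 9 of 89 higher and 10 lower. Rgs2, which shortens Gq signals, read 10.49, 10.59, 10.5 and 10.33 in the controls and 13.38, 12.51, 13.85 and 13.7 in XY FOXL2+ (2.88 ± 0.22 SE, adjusted p = 5.9e-06). Npr2, the receptor of C-type natriuretic peptide, read 9.38, 9.43, 9.38 and 9.39 against 10.71, 11.05, 10.92 and 10.65 (1.43 ± 0.11 SE), while its ligand Nppc fell by 1.22 (SE 0.28), a call lost without replicate 1 or replicate 3 of XY control. Nppc was picked out after its values were seen. Rgs6 rose by 1.42 (SE 0.11) and the phosphodiesterase Pde3b rose by 1.38 (SE 0.19). Prkar2b, a regulatory subunit of protein kinase A, fell by 1.68 (SE 0.21) from 14.34 to 14.66, Rgs5, a gene of pericytes, fell by 1.44 (SE 0.14), and the scaffold Akap12 fell by 1.0.

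Immune genes included a set of guanylate-binding proteins, which interferon induces. Gbp2 read 6.47, 6.60, 6.82 and 7.11 in the controls and 8.85, 9.48, 8.64 and 8.13 in XY FOXL2+ (2.02 ± 0.23 SE, adjusted p = 0.000129), and Gbp9 rose by 0.94 (SE 0.09). The class I antigen genes H2-D1 (1.25 ± 0.14 SE) and H2-K1 (1.16 ± 0.19 SE), which are near-identical to other copies, rose too. In all 8 of 98 interferon and antigen presentation genes rose and 5 fell, among them Bst2 (-1.71 ± 0.30 SE) and Stat2 (-0.55). B2m (-0.26), the light chain of class I molecules, did not pass. Macrophage and leukocyte markers rose in 4 of 13 cases, Adgre1 (0.37), Csf1r (0.36, a call lost in 5 of the 12 leave-one-out fits and with the replicate block, adjusted p = 0.0627), C1qb (0.74, lost without XY control replicate 3) and Mrc1 (0.55), and the mean of the 13 was 6.97 to 7.23 in the controls and 7.20 to 7.51 in XY FOXL2+. The defining Ptprc (6.24 and 6.42 as group means) lay near the array median in both groups, and the part of leukocytes in the class was not tested. Of 44 complement and coagulation genes Cd55 rose (1.52 ± 0.23 SE) and, besides C7, thrombomodulin Thbd (-1.69 ± 0.24 SE) and Vwf (-0.94) fell. Endothelial markers rose in 3 of 13 cases, Emcn (0.76), Cldn5 and Ramp2 (0.54, a call lost in 6 of the 12 leave-one-out fits), while Pecam1 (0.06), Cdh5 (-0.19) and Kdr (0.14) did not pass.

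In the germline, piRNA and genome defence genes fell in 8 of 43 cases and rose in 2. Dppa4, a chromatin protein of pluripotent cells and fetal germ cells, read 10.87, 11.24, 11.79 and 12.68 in the controls and 7.67, 8.03, 9.65 and 10.25 in XY FOXL2+ (-2.75 ± 0.53 SE, adjusted p = 0.0067). Morc1, which silences transposons in male germ cells, differed by -2.68 (SE 0.63) and Tdrd5, a piRNA factor, by -1.83 (SE 0.36). Without XY FOXL2+ replicate 1 the class had 4 lower and 3 higher, and Morc1 did not pass (adjusted p = 0.0513), a call that 4 of the 12 leave-one-out fits lost. Of the markers shared by germ cells of both sexes 4 of 10 fell, Sall4 (-0.73), Dnd1 (-0.89), Tdrd5 and Prdm1 (-0.68), and Ddx4 (-0.16) and Dazl (0.35) did not pass. Without XY FOXL2+ replicate 1 Dazl was at 0.65 and passed (adjusted p = 0.02), and the list then had 3 falls and 1 rise. The call of Sall4 was lost in 7 of the 12 leave-one-out fits. The mean of the 10 was 10.84 to 11.4 in the controls and 9.98 to 10.79 in XY FOXL2+, lowest on replicate 1. Among markers of male germ cells Nanos2 (-1.35), Nanos3 (-0.87) and Lefty2 fell. Whether germ cell number differed was not tested.

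Of 112 mitotic and cell cycle genes 8 rose and 11 fell, and without XY FOXL2+ replicate 1 the counts were 9 and 25. The 4 largest rises were in Cdkn1b, Ccne2, Cdk6 and Ccne1, regulators of G1. Cdkn1b, the inhibitor p27, read 10.03, 9.81, 9.92 and 9.85 against 11.83, 12.52, 11.35 and 11.08 (1.79 ± 0.23 SE, adjusted p = 0.000372), Ccne2 rose by 1.47 (SE 0.12), Cdk6 rose by 1.3 (SE 0.16) and Ccne1 rose by 1.29 (SE 0.28), which did not pass in the fit on 8 arrays (adjusted p = 0.0585). The proliferation marker Mki67 (0.25) did not pass. Of 44 histone genes 2 rose, the H2ac1 and H2bc1 pair, and H2az2 fell (-0.49). The imprinted gene Peg10 read 12.65 to 13.1 in the controls and 15.22, 15.27, 14.09 and 13.73 in XY FOXL2+ (1.76 ± 0.30 SE). Among 58 imprinted genes Pon3 (-1.35 ± 0.14 SE), Dlk1 (-1.19 ± 0.12 SE), Sfmbt2 (-0.74) and Zdbf2 (-0.54) fell, the calls of Sfmbt2 and Zdbf2 being lost in 6 and 4 of the 12 leave-one-out fits.

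MicroRNAs are short RNAs that bind target transcripts mainly through their seed, bases 2 to 8, and are cut from longer precursors. The array reads the loci of microRNA genes, and its labelling of total RNA does not separate the mature form from the precursor or its host transcript. Of 917 genes named for microRNAs, host transcripts included, 40 fell (4.36%) and 5 rose (0.545%), with a median of -0.05. Without XY FOXL2+ replicate 1, 31 fell and 17 rose. Of the 45, 39 had a mature sequence in RefSeq (build GRCm38.p6). Of the falls, 22 lay on chromosome 12 between Dlk1 and Dio3, an imprinted domain that carries a long series of microRNA genes read from the maternal chromosome in a series of long non-coding transcripts. Those long transcripts are not among the genes with a value here. This domain was picked out after the values were seen, and no test of it is given. It held 46 measured microRNA genes, of which 22 fell, none rose and 45 had a negative change, with a median of -0.58. The other 871 had 5 higher and 18 lower, with a median of -0.04, and 17 higher and 13 lower without XY FOXL2+ replicate 1, so the balance outside the domain turned on that array. The mean over the 46 was 7.72, 7.27, 7.45 and 7.32 in the controls and 6.70, 6.74, 7.01 and 6.97 in XY FOXL2+, with no overlap. Without XY FOXL2+ replicate 1, 18 fell, and in the fit on 8 arrays 13 fell. The domain's genes share transcripts, so their values are not independent of each other. Dlk1, at its edge and read from the paternal chromosome, read 11.21, 11.09, 11 and 11.04 against 9.86, 9.80, 9.84 and 10.09 (adjusted p = 3.98e-05), and Dio3 at the other edge (0.21) did not pass. Dio3 lay far below the array median in both groups (4.88 and 5.08 as group means), so a fall there could go unseen.

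**Figure D5:**
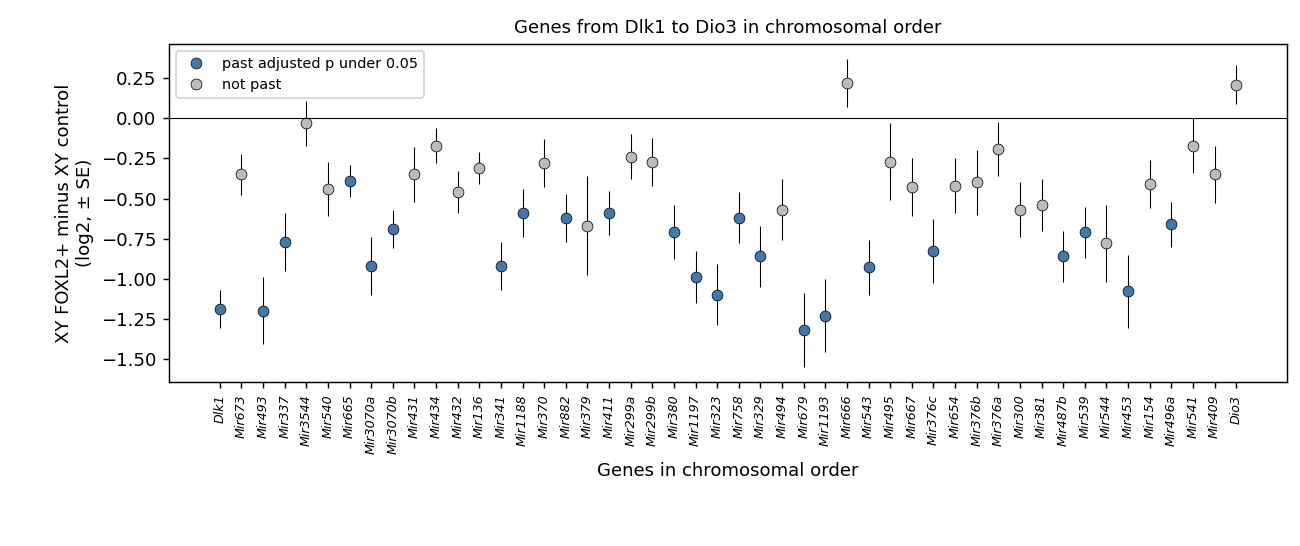
Log2 change (XY FOXL2+ minus XY control, points with lines of ± 1 SE) of Dlk1, Dio3 and the 46 microRNA genes measured between them, in chromosomal order, blue where past an adjusted p of 0.05 and grey where not. Of the 46 microRNA genes 45 lie below 0, and the falls past the threshold are spread along the series.

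The mature sequences of the members with at least a 2-fold fall in the domain, and of pairs of called genes that share a seed, are given 5′ to 3′ with the seed in capitals. They are shown because genes with a shared seed have overlapping predicted targets. For genes with more than 1 arm, only 1 is printed.
Mir679 (miR-679-5p): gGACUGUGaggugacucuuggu
Mir1193 (miR-1193-5p): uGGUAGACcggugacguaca
Mir493 (miR-493-5p): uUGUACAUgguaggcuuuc
Mir323 (miR-323-3p): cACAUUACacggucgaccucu
Mir453 (miR-453): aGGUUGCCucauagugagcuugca
Mir496a (miR-496a-5p): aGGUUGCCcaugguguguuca
Mir1197 (miR-1197-5p): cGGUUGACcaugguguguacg
Mir758 (miR-758-5p): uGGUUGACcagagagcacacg
Mir3070a and Mir3070b (miR-3070-5p): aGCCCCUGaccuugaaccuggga
Mir125b-1 and Mir125b-2 (miR-125b-5p): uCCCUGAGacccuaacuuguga

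Of these, Mir679 fell most, from 10.35, 9.82, 9.84 and 10.07 to 8.05, 8.39, 9.24 and 9.12 (-1.32 ± 0.23 SE, adjusted p = 0.00326). Mir1193 fell by 1.23 (SE 0.23), Mir493 fell by 1.20 (SE 0.21), Mir323 fell by 1.10 (SE 0.19) and Mir453 fell by 1.08 (SE 0.23), and in each the groups did not overlap. Mir453 and Mir496a (-0.66), which share the seed GGUUGCC, both fell, as did Mir1197 (-0.99) and Mir758 (-0.62), which share GGUUGAC, and Mir3070a (-0.92) and Mir3070b (-0.69). The group means of Mir3070a (6.14 and 5.21) and Mir3070b (6.10 and 5.41) lay below the array medians. The call of Mir758 was lost in 7 of the 12 leave-one-out fits, and neither Mir758 (adjusted p = 0.103) nor Mir453 (0.0569) passed in the fit on 8 arrays. The 2 genes of miR-125b, which give the same mature sequence from different chromosomes, moved apart. Mir125b-2, on chromosome 16, fell from 8.17, 7.90, 8.11 and 7.88 to 6.82, 6.77, 7.51 and 7.48 (-0.87 ± 0.16 SE), and its host transcript Mir99ahg fell by 0.57, a call lost in 4 of the 12 leave-one-out fits. Mir125b-1, on chromosome 9, read 6.56, 6.31, 5.86 and 5.79 against 6.93, 7.19, 6.98 and 6.38 (0.74 ± 0.19 SE, adjusted p = 0.0352), and its neighbours Mir100 (0.57) and Mir100hg (0.44) rose as well. The groups overlapped on Mir125b-1 and Mir100, and of the 12 leave-one-out fits 7 lost the call of Mir125b-1 and 9 that of Mir100. The microRNA genes outside the chromosome 12 domain and their host transcripts were picked out after their values were seen, except Mir6387, Mir125b-1 and Mir100. Outside the chromosome 12 domain the largest fall was Mir6387, from 8.28, 8.26, 8.45 and 8.47 to 6.57, 7.01, 7.34 and 7.20 (-1.33 ± 0.15 SE). Of 62 small nucleolar RNA genes 2 fell and none rose.

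The remaining marker lists gave these values. Fetal granulosa markers rose in 5 of 11 cases, Foxl2, Fst, Bmp2, Runx1 and Nkd1, with a median of 1.06 and means of 9.29, 9.91, 8.27 and 8.21 in XY FOXL2+ against 7.71 to 7.77. Foxl2 is the gene that the transgene carries, so its rise follows from the design, and the count, median and means include it. The fit on 8 arrays called 4 rises and lost Runx1. Wnt4 (0.30) and Irx3 (0.94) did not pass. Interstitial progenitor markers fell in 3 of 6 cases, Wnt5a, Dlk1 and Nr2f2, and Maf rose (0.65), the calls of Nr2f2 and Maf being lost in 10 and 4 of the 12 leave-one-out fits. Adrenal cortex markers fell in 4 of 6 cases, Cyp11b1 (-3.72), Mc2r (-1.53), Cyp21a1 (-0.92) and Cyp11b2 (-0.71). None of 6 erythroid markers passed, but their mean was 10.43 and 10.56 on XY FOXL2+ replicates 1 and 2 and 8.98 and 8.60 on replicates 3 and 4, against 9.25 to 9.84 in the controls. None of 6 neural crest and glia markers passed. Amounts of blood in the samples and their part in the differences among XY FOXL2+ arrays were not tested.

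The promoters of the genes were searched for 5 short words on both strands, in windows from 250 bases before to 50 after each RefSeq start (build GRCm38.p6). The word GTCAAGG, part of a published FOXL2 element, was in the windows of 13 of 215 genes that fell by at least 2-fold (6.05%), 9 of 183 that rose (4.92%) and 3.58% of all 18265. The forkhead words TGTTTGC (4.19% of falls, 4.92% of rises, 5.35% of all) and TGTTTAC (2.79%, 1.64% and 3.55%) were no more frequent among the falls or the rises as a whole. In the 11 fatty acid synthesis genes that fell and had a window, TGTTTAC was in 3 (27.3%) and TGTTTGC in 1 (9.09%). GTCAAGG, the SF1 word CAAGGTCA and the sterol word TCACNCCAC were in none of the 11. The SF1 word CAAGGTCA was in 2.33% of all falls, 0.546% of rises and 1.54% of all. The sterol word TCACNCCAC was in 1.40% of falls, 0.0% of rises and 1.47% of all. None of these shares was tested, and the letters alone do not show binding. Windows upstream of a pair of large falls, picked from those that hold a word, are shown as examples, with the word in capitals: Ephx1 lies on chr1:181017763-181017819, minus strand, and Hhip on chr8:80058048-80058104, minus strand.
Ephx1: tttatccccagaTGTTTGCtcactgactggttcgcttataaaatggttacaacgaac
Hhip: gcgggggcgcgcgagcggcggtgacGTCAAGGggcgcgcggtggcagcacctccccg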

How the data were processed

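RNA from each pair of gonads was extracted with the Picopure kit and 100 ng were labelled with the WT Plus kit, per the labels' protocols. The deposited table holds 1 log-scale value per probe set and array, taken here as log2 from its range (2.60 to 19.49). How the authors normalized them, the log base and the build: not given in the sources used here. After 6732 control entries were left out, 65956 clusters were tested, of which 31258 had 1 gene symbol, 1492 several and 33206 none. limma 3.58.1 (R 4.3.3) fitted the 12 arrays in 1 model with an intensity trend, with Benjamini-Hochberg adjustment over all clusters. The script was tested on simulated data. Single-gene p-values are from limma, and the number of arrays limits the precision. A gene with several clusters was read through the brightest. Named genes are the 20 largest non-overlapping rises and falls outside the 4 classic lists, up to 4 members in each direction and 2 bright uncalled members per class, and the markers. The members and lists were chosen with earlier results of these data known. Alternatives covered the arrays fitted, scaling, low-signal filter, weights, trend, replicate block, each array left out, and the cluster standing for a gene. Each replicate is 1 embryo's pair of gonads.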

Additional observations from a re-analysis of the deposited data

Results flagged for a closer look

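In 24 of 596 groups of 4 arrays examined (4.03%), 1 array lay apart from the other 3, with a gap over the group's range above Dixon's critical value. Chance flags about 1 group in 20. Among the XY control arrays, replicate 2 was highest for Bmp5 (0.953), Dsc2 (0.833), Igfbp3 (0.844), Kera (0.867) and Plin2 (0.875) and lowest for Hspa12a (0.929) and Plin1 (0.857). Replicate 1 was highest for Slc6a15 (0.879), replicate 3 highest for Fads2 (0.837) and replicate 4 lowest for Tgif1 (0.870). Among the XY FOXL2+ arrays, replicate 2 was lowest for Emcn (0.933), Epas1 (0.850), Hsd11b2 (0.890), Id2 (0.885), Lefty2 (0.893), Pon3 (0.892), Sel1l3 (0.864) and Tspan15 (0.896). Replicate 1 was highest for Dio3 (0.930) and Sfrp4 (0.851) and lowest for Fgfr1 (0.920) and Slc25a35 (0.882). Replicate 3 was lowest for Rgs5 (0.926) and replicate 4 highest for Spock2 (0.933).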

How the results depend on the processing

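Of the 269 genes described that passed the threshold, none reversed under any alternative run, 219 kept their call under all of them and 50 lost it under at least 1. The fit on 8 arrays lost 44 of these calls and called 809 clusters higher and 1891 lower, against 1621 and 3077. With 1 array left out, the clusters called higher ranged from 998 to 1938 and those lower from 2126 to 3670, and between 6 and 36 of the described calls were lost. The 44 were Acacb, Atp5pb, Ccne1, Cst9, Cxcl12, Dsc2, Emcn, Foxn3, Gdnf, Gpx3, Hgf, Hhip, Hk2, Htra3, Igfbp4, Itga4, Jam2, Lhx1, Maf, Mir100, Mir125b-1, Mir453, Mir758, Mir99ahg, Morc1, Nanos3, Nfe2l2, Nppc, Nr2f2, Nr6a1, Ntn4, Pla2g1b, Runx1, Sall4, Sfmbt2, Sox4, Sox5, Stat2, Stc1, Thbs2, Tnfrsf19, Vegfd, Zdbf2 and Zfhx4. Of the uncalled genes described, 6 passed under at least 1 alternative: Cyp1b1 and Dazl as given above, Krt18 with the replicate block (adjusted p = 0.0366) and without XY FOXL2+ replicate 3 (0.0226) or 4 (0.0221), Rspo1 without replicate 3 (0.0355) or 4 (0.0457), Irx3 without replicate 3 (0.0231) and Kitl without replicate 4 (0.036). The replicate block gave 1438 higher and 2918 lower and lost 5 of the described calls. Over all clusters, same-numbered arrays did not deviate together (r from -0.0577 to 0.075, against -0.129 to 0.202 for other pairs). The mean of 10 general germ cell markers climbed with replicate number in both groups. It read 10.84, 11.04, 11.09 and 11.4 in the controls and 9.98, 10.48, 10.57 and 10.79 in XY FOXL2+. That of 29 classic meiosis genes did not, at 9.51, 11.54, 10.51 and 10.49 in XY FOXL2+. Both lists were picked out here after their values were seen. A pairing that touches only some genes could go unseen in these correlations, so whether the numbers pair the samples is not settled. Genes that did not pass and changed sign were Acaca (0.02 after quantile normalization, 0.04 without XY control replicate 4, 0.03 without XY FOXL2+ replicate 1), Ddx4 (0.09 without XY FOXL2+ replicate 1), Hspa8 (0.00 after quantile normalization), Igf2 (-0.00 without XY FOXL2+ replicate 2) and Pax2 (0.03 without XY control replicate 2, 0.00 and 0.01 without XY FOXL2+ replicates 2 and 4). With 1 array left out these ranged from -0.14 to 0.04 (Acaca), -0.34 to 0.09 (Ddx4), -0.00 to 0.28 (Igf2) and -0.03 to 0.03 (Pax2). Reading genes through their other cluster moved no class count by more than 1. The cause of these changes was not tested.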
